A study of Mus musculus with 3 samples.

Results

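The genes described here were 36 ligands and receptors of the ephrin, Slit and netrin guidance systems, chosen by name, and their Isl1 peaks were those that the deposited list of Isl1 ChIP-Seq peaks assigned to them. After repeated lines were dropped, 28 of the 36 genes carried 62 of the 14082 distinct peaks (0.440%). The list came from cardiac progenitor cells (CPCs) differentiated for 5 days from the mouse embryonic stem cell line E14 Tg(Nkx2-5-EmGFP), which carries a fluorescent reporter of the cardiac factor Nkx2-5. There were 3 libraries, of which 2 were Isl1 ChIP replicates pulled down with the DSHB antibody clone 39.4D5 and 1 was input chromatin without antibody. All 3 shared the cell line and the day, no library came from cells without Isl1, and the line is a model of the progenitors in culture and not the embryonic heart field itself. ChIP-Seq sequences the DNA that is crosslinked to a protein, so a peak marks a stretch with an excess of reads. The list holds no expression values, so neither the cell type nor the activity of any gene could be read from it. The deposited list joined both replicates and gave no read number, score or enrichment. The sequencing depth therefore cannot be given, the values carry no replicate error, and the intervals below (Wilson, 95%) cover counting error only.

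Ephrins are membrane-bound ligands of the Eph receptor tyrosine kinases, and contact between a cell with the ligand and a cell with the receptor sends signals into both. A-type ephrins are held by a lipid anchor and mainly bind EphA receptors, whereas B-type ephrins span the membrane and mainly bind EphB receptors. Slits are secreted ligands of the Robo receptors and usually repel. Netrins are secreted, laminin-related ligands that attract cells through DCC and neogenin and repel them through UNC5 receptors. These systems are best known from axon guidance, and they also act in vessels and in the heart: ephrin-B2 and EphB4 mark arterial and venous endothelium, EphA3 acts in the endocardial cushions, and Slits and Robos act in septation and in the cardiac neural crest.

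Isl1 peaks were found at the promoters of most of these genes. In the following, a promoter peak is a peak with a deposited distance of at most 1 kb between its midpoint and the transcription start site (TSS), and a distal peak lies beyond 10 kb. A promoter peak was present at 21 of the 36 genes (58.3%, interval 42.2% to 72.9%), where 24.2% of the 21031 RefSeq protein-coding genes had one. At least 1 peak of any kind was assigned to 28 of 36 (77.8%, interval 61.9% to 88.3%), against 39.1% of all protein-coding genes. At least 2 peaks were assigned to 11 of 36 (30.6%), against 11.0%, and a distal peak to 13 of 36 (36.1%), against 16.4%. These shares are set side by side without a test, because the genes were chosen with earlier results of these data known. Of the 28 genes, 15 had a promoter peak alone, 6 had a promoter peak and others, and 7 had other peaks alone. The 8 genes without an assigned peak were Epha1, Epha2, Epha4, Epha10, Ephb6, Efna1, Robo2 and Robo4.

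**Figure D1:**
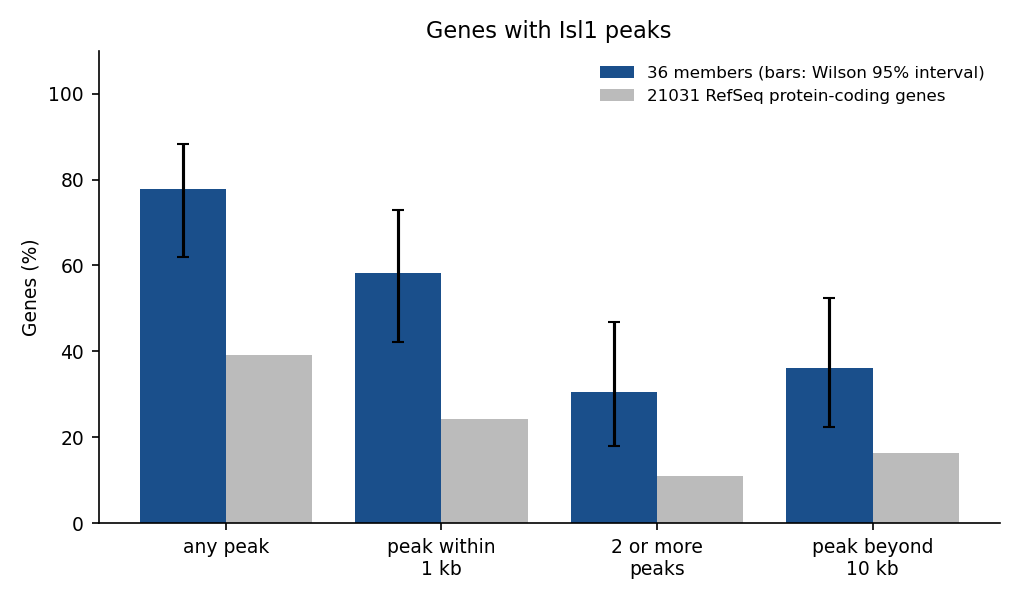
Percentage of genes (vertical axis) with any Isl1 peak, a peak within 1 kb of the TSS, 2 or more peaks and a peak beyond 10 kb, for the 36 guidance genes (blue, with Wilson 95% intervals as error bars) and for 21031 protein-coding genes (grey). The 36 genes reach 77.8%, 58.3%, 30.6% and 36.1%, where all protein-coding genes reach 39.1%, 24.2%, 11.0% and 16.4%.

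The counts were split by role. Of 12 ligand genes, 11 had a peak and 10 a promoter peak (83.3%, interval 55.2% to 95.3%). Of 24 receptor genes, 17 had a peak and 11 a promoter peak (45.8%, interval 27.9% to 64.9%). The intervals overlap, and the difference was not tested. Among the receptors, 4 of 5 EphB genes (interval 37.6% to 96.4%) and 3 of 9 EphA genes (12.1% to 64.6%) had a promoter peak. So did 3 of 4 UNC5 genes (30.1% to 95.4%), 1 of 2 DCC family genes (9.45% to 90.5%) and 0 of 4 Robo genes (0% to 49.0%). The share of all protein-coding genes was 24.2%. These family intervals overlap as well, and differences between families were not tested.

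**Figure D2:**
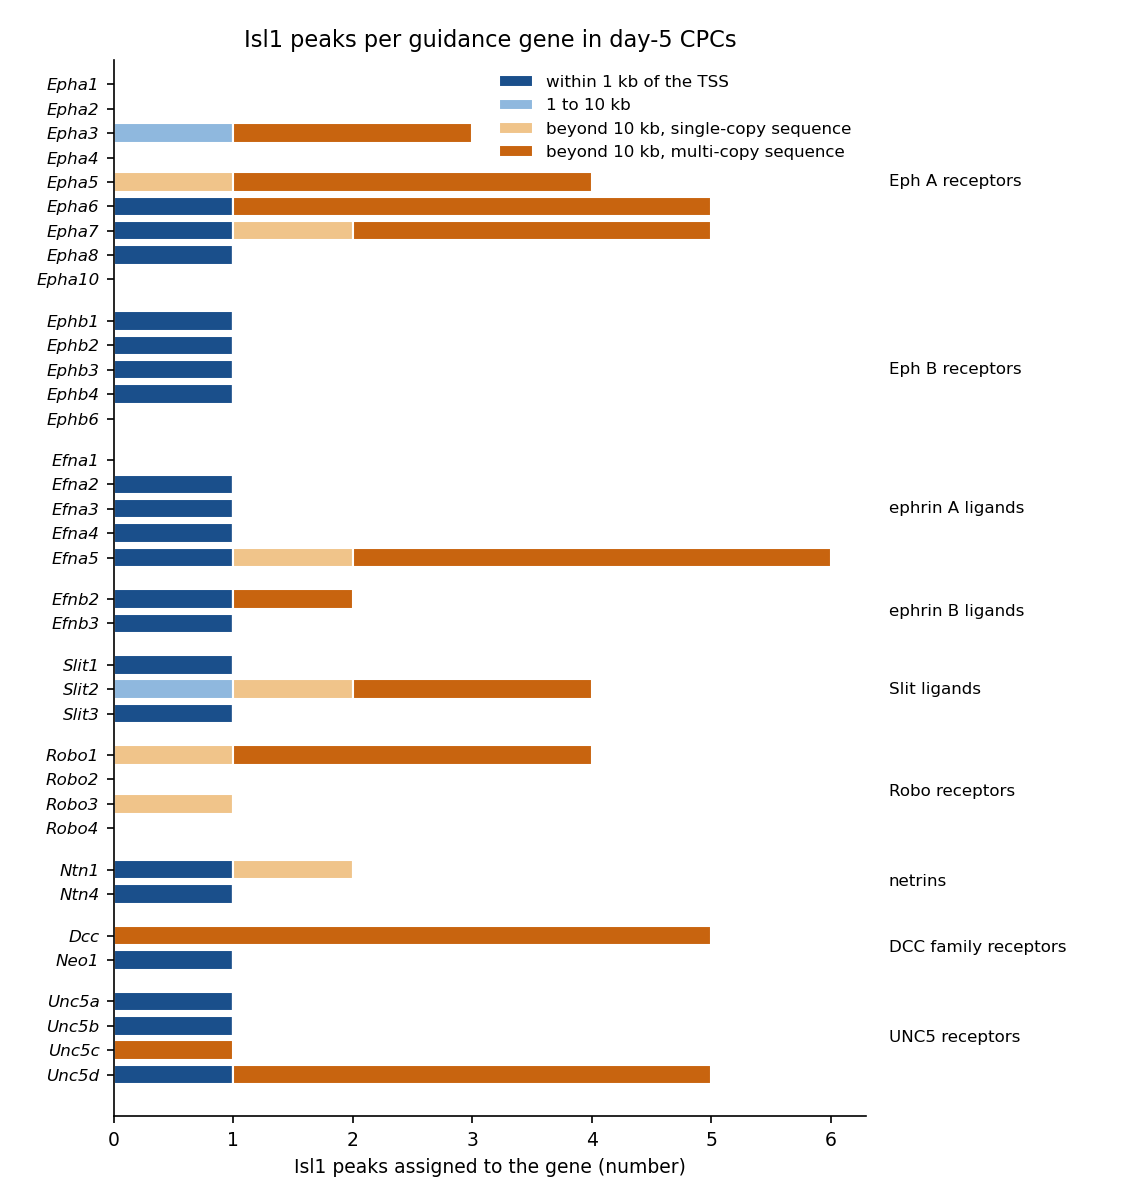
Number of Isl1 peaks (horizontal axis) assigned to each of the 36 genes (vertical axis, by family), with colours for the distance to the TSS and, beyond 10 kb, for single-copy and multi-copy sequence. Each of the 21 genes with a peak within 1 kb has 1 such peak, Efna5 has the most peaks with 6, and the orange multi-copy peaks lie in 11 genes.

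The sequences of the most CpG-rich promoter peaks are shown first, so they are not typical of all 21. The promoter peak with the highest ratio of observed to expected CpG dinucleotides in its central 200 bp was taken from each of the 6 families in which this ratio was highest. This leaves out the B-type ephrins (Efnb2, 0.972) and the DCC family (Neo1, 0.979). Printed are the 150 bases inside the peak just before an annotated TSS of the gene, which is not always the TSS of the deposited distance. They are read in the direction of transcription, from the mm9 sequence. Capitals mark the GC box, GGGCGG or its complement CCGCCC, the string bound by Sp factors. The windows are chr10:79642077-79642226 (plus strand) for Efna2, chr10:60294330-60294479 (minus strand) for Unc5b, chr10:93103276-93103425 (plus) for Ntn4, chr4:136512732-136512881 (minus) for Epha8, chr11:34934576-34934725 (plus) for Slit3 and chr4:136391904-136392053 (minus) for Ephb2.
Efna2: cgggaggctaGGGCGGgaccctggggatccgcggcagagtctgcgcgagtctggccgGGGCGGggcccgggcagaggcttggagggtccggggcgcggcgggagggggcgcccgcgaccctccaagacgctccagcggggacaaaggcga
Unc5b: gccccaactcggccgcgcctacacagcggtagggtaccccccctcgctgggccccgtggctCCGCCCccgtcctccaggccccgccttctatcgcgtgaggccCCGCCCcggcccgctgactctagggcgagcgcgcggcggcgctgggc
Ntn4: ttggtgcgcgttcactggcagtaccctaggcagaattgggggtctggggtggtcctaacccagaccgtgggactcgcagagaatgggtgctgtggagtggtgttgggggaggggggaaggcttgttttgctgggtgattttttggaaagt
Epha8: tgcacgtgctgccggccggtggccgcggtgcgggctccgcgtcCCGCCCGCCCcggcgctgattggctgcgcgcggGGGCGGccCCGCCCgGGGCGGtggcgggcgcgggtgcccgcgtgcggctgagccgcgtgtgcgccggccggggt
Slit3: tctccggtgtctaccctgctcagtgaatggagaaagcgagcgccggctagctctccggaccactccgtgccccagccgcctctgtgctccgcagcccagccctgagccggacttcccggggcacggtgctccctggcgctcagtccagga
Ephb2: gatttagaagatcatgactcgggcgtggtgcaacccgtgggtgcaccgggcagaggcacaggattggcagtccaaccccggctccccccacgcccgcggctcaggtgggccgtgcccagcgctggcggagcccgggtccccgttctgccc
The Epha8 window is the richest of the 6, with 86.0% GC, 30 CpG sites and 5 GC boxes. Efna2 and Unc5b have 19 and 20 CpG sites and 2 GC boxes each. Slit3 with 12 and Ephb2 with 13 CpG sites have no GC box, nor does Ntn4, whose window has 4 CpG sites and 57.3% GC. The Ntn4 window precedes the start at 93103426, whereas the start closest to the peak midpoint is at 93103794, so it does not describe the latter. Over 18118 protein-coding genes, 39.3% hold a GC box in the 150 bases before the TSS, taken at 1 TSS per gene.

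Over the 21 promoter peaks, the GC content of the central 200 bp had a median of 74.5% (66.5% to 86.0%), where all 5416 promoter peaks of the list had a median of 74.0%. The median CpG ratio was 0.979, against 0.930. The flanks 2 kb to the lower and the higher coordinate side of these 21 peaks had median GC contents of 47.5% and 51.0%. The peak midpoints were placed downstream of the TSS in 18 genes and upstream in 3, with a median of 168 bp downstream. The farthest promoter peak was that of Ntn1 at 752 bp, and the next peak outward was that of Slit2 at 3043 bp, so no peak lay near the 1 kb limit. Median width was 1104 bp, against 1050 bp for all promoter peaks.

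Among the A-type ephrins, Efna2, Efna3, Efna4 and Efna5 had promoter peaks and Efna1 had none. The Efna2 peak (chromosome 10, 79641908 to 79642882) was 974 bp wide, was centred 168 bp downstream of the TSS in the annotated untranslated region (UTR) and had the highest CpG ratio of all member promoter peaks, 1.26. Efna3 and Efna4 are neighbours on chromosome 3, and each had a peak of its own. The Efna3 peak (89126405 to 89127074) was 669 bp wide and centred 62 bp downstream in a coding exon, and the Efna4 peak (89141321 to 89142136) was 815 bp wide and centred 222 bp downstream in an intron. Efna1 lies in the same cluster, and its nearest peak was the one of Efna3, 43.2 kb away. The Efna5 promoter peak (chromosome 17, 63229185 to 63231549) was among the wide ones at 2364 bp and centred 299 bp downstream in a coding exon.

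Efnb2 and Efnb3, the only B-type ephrin genes among those chosen, each had a promoter peak. The peak of Efnb2, which encodes the arterial marker ephrin-B2, spanned 1557 bp (chromosome 8, 8660302 to 8661859). Its midpoint was 307 bp upstream of the TSS used by the authors, the farthest upstream of the 21, and lay in an annotated UTR 159 bp from another Efnb2 start. Efnb3 had a peak of 836 bp (chromosome 11, 69373184 to 69374020), centred 137 bp downstream in a UTR.

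Among the receptors of the B-type ephrins, Ephb1, Ephb2, Ephb3 and Ephb4 were assigned 1 promoter peak each, all in annotated UTRs, and Ephb6, which encodes a receptor without kinase activity, had none, with the nearest peak 202 kb away. The Ephb2 peak (chromosome 4, 136390532 to 136393027) was 2495 bp wide, which made it the third widest of the 62, and was centred 148 bp downstream of the TSS. The peaks of Ephb1 (chromosome 9, 102256293 to 102257114), Ephb3 (chromosome 16, 21204541 to 21205710) and Ephb4 (chromosome 5, 137791058 to 137792053) were 821, 1169 and 995 bp wide. They were centred 320, 257 and 218 bp downstream of the TSS. The Ephb1 gene body held 2 peaks, the other of which was assigned to the microRNA gene Mir7243, and 2 peaks lay within 10 kb of the Ephb2 gene body, of which 1 was assigned elsewhere. The pair of ephrin-B2 and EphB4, which separates arteries from veins, thus had a promoter peak at both the ligand and the receptor gene.

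Of the EphA receptor genes, Epha6, Epha7 and Epha8 had promoter peaks. The Epha8 peak (chromosome 4, 136512182 to 136513113) was 931 bp wide, was centred 84 bp downstream in a coding exon and had 86.0% GC, the highest of the 21. The Epha6 peak (chromosome 16, 60604736 to 60605262) was the narrowest promoter peak at 526 bp, 358 bp downstream in a coding exon, and the Epha7 peak (chromosome 4, 28740526 to 28741376) was 850 bp wide and 656 bp downstream in an intron. Epha3, whose receptor acts in the atrioventricular cushions, had its closest peak 7039 bp downstream in its own intron. That peak was at single-copy sequence, 596 bp wide, with 64.5% GC. Epha5 had no peak closer than 39.2 kb.

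Slit1 and Slit3 had promoter peaks. The Slit1 peak (chromosome 19, 41817440 to 41818544) was 1104 bp wide and centred 354 bp downstream in a UTR. The Slit3 peak (chromosome 11, 34934380 to 34935533) was 1153 bp wide and centred 2 bp upstream of the deposited TSS, in an annotated UTR. Slit2 had its closest peak in its own intron, 3043 bp downstream by the deposited distance and 1387 bp from the closest annotated Slit2 start, at single-copy sequence with a CpG ratio of 1.02.

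No promoter peak was assigned to any of the 4 Robo receptor genes. Robo1 had 4 distal peaks, the closest 39.0 kb upstream, and Robo3, which acts in commissural axons, had 1 peak 27.4 kb upstream at single-copy sequence with 71.5% GC. Robo4, a receptor of endothelial cells, had its nearest peak 17.3 kb away, assigned to Hepacam. Robo2 had no assigned peak, but 3 peaks lay inside its gene body and were assigned to the microRNA gene Mir691. With the closest protein-coding TSS of the GENCODE annotation in place of the authors' assignment, Robo2 received 8 peaks, all 8 at multi-copy sequence and the nearest 204.8 kb from its TSS.

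Ntn1 and Ntn4, the only netrin genes among those chosen, had promoter peaks. Ntn1 encodes netrin-1, and its promoter peak (chromosome 11, 68198244 to 68200909) was the second widest of the 62 at 2665 bp, centred 752 bp downstream in a coding exon with a CpG ratio of 1.06. A second Ntn1 peak (68213076 to 68214276) of 1200 bp was deposited as 13.3 kb upstream, but it was 649 bp from another annotated Ntn1 start, with 73.0% GC and a GC box. Its CpG ratio of 0.676 was below the lowest of the 21 promoter peaks, 0.757 at Epha6. The peak of Ntn4, a netrin of basement membranes, was 1232 bp wide (chromosome 10, 93103223 to 93104455) and centred 45 bp downstream in a UTR.

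Netrin receptors were split. Neo1, which encodes neogenin, had a promoter peak of 1564 bp (chromosome 9, 58883431 to 58884995) centred 35 bp downstream in a UTR, whereas Dcc had 5 peaks, all upstream of the gene and none closer than 61.1 kb. Of the repulsive receptors, Unc5a had a peak of 1541 bp (chromosome 13, 55049988 to 55051529) centred 14 bp upstream of the TSS with 84.5% GC. Unc5b, whose receptor acts in endothelial tip cells, had a peak of 1134 bp (chromosome 10, 60293585 to 60294719) centred 177 bp downstream in a UTR with a CpG ratio of 1.21, the second highest of the 21. Unc5d had a promoter peak of 879 bp (chromosome 8, 30329598 to 30330477) centred 71 bp downstream, among 5 peaks in all. Unc5c had 1 peak, 144.6 kb downstream in its own intron at multi-copy sequence. A second peak 0.747 kb from an annotated Unc5a start was assigned to Hk3.

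**Figure D3:**
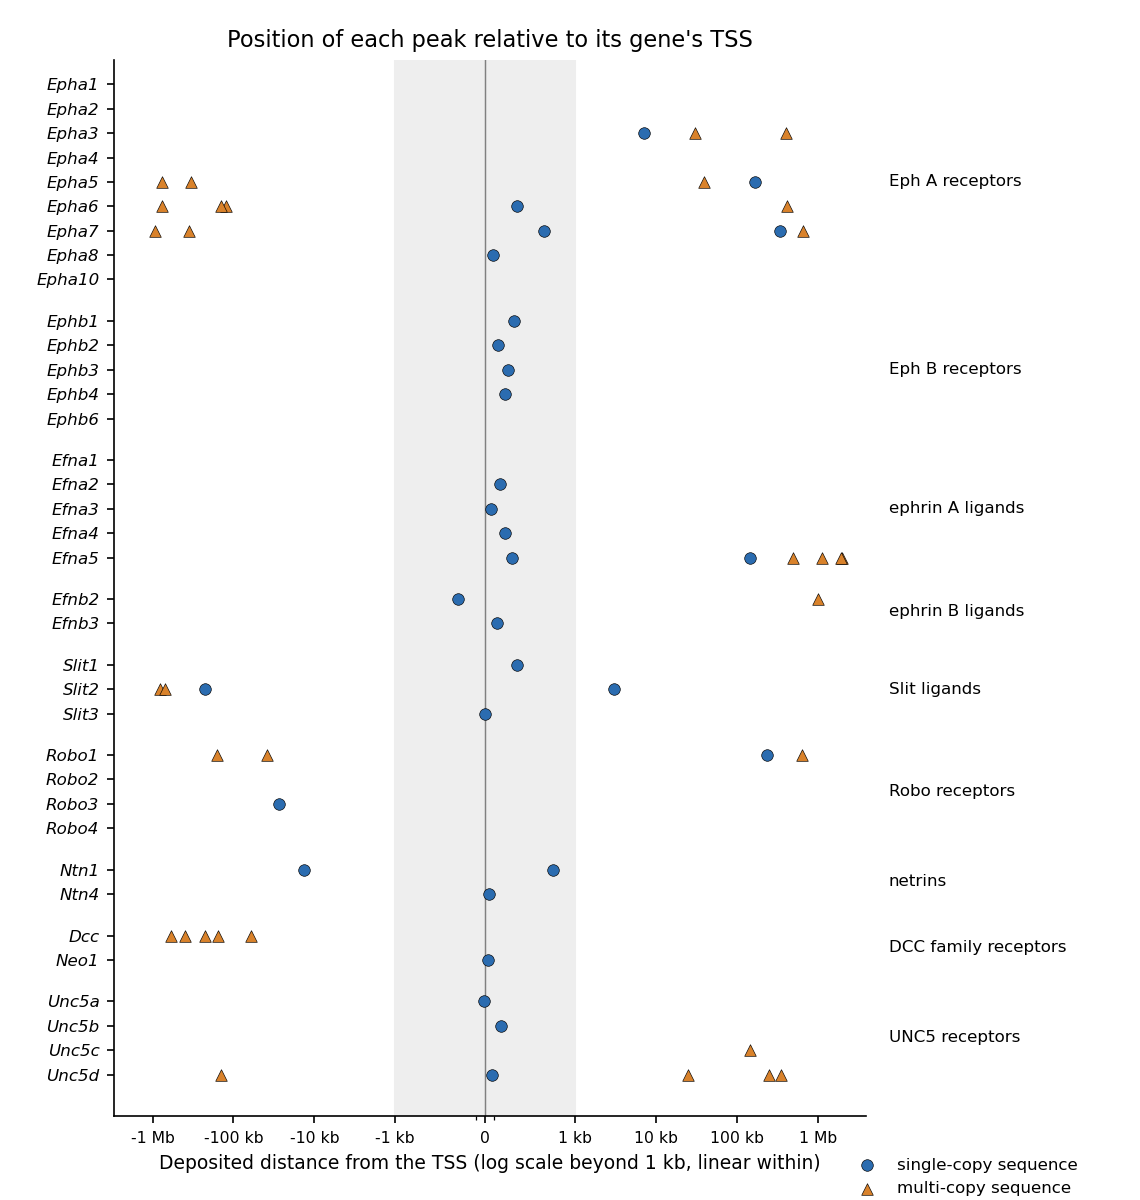
Signed distance of each of the 62 peaks from the TSS of its gene (horizontal axis, upstream to the left, linear within 1 kb and logarithmic beyond), by gene and family (vertical axis). Circles are single-copy and triangles multi-copy sequence, and the grey band marks 1 kb to either side. All 21 symbols in the band are circles, 18 of them to the right of the TSS, and the 32 triangles all lie beyond 10 kb.

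Away from promoters the peaks lay on another kind of sequence. For the copy number, every 31-mer within the middle 200 bp was looked up in the genome in both orientations, and the median of these counts was taken. From 2 copies a peak was called multi-copy. Reads from such sequence can fit several places in the genome, depending on read length, which is not given here. With 75-mers, 38.7% of the 62 peaks were multi-copy. The study ran Bowtie2 at its defaults, under which a read that fits several places equally well is put at a randomly chosen one of them. The position of an individual multi-copy peak can therefore be less certain than that of a single-copy peak. Of the 39 distal peaks, 32 were multi-copy (82.1%), against 81.2% of all 7193 distal peaks of the list. Of the 21 promoter peaks 0 were multi-copy, against 2.62% of all promoter peaks, and a count of 0 in 21 allows a share of up to 14.3% if 3 counts are taken as the limit. Over all 62 peaks the share was 51.6% (interval 39.4% to 63.6%), where the whole list had 46.5%. The median copy number of the distal peaks was 769, against 308.5 for all distal peaks. By the deposited distance, distal peaks were centred a median of 336.7 kb from the TSS, and 32 of the 39 lay more than 100 kb away. Of the 39, 28 were intergenic and 11 were in an intron of their own gene, and 20 were upstream and 19 downstream. Median GC content was 64.5% and the median CpG ratio 0.569, both lower than at the promoter peaks.

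**Figure D4:**
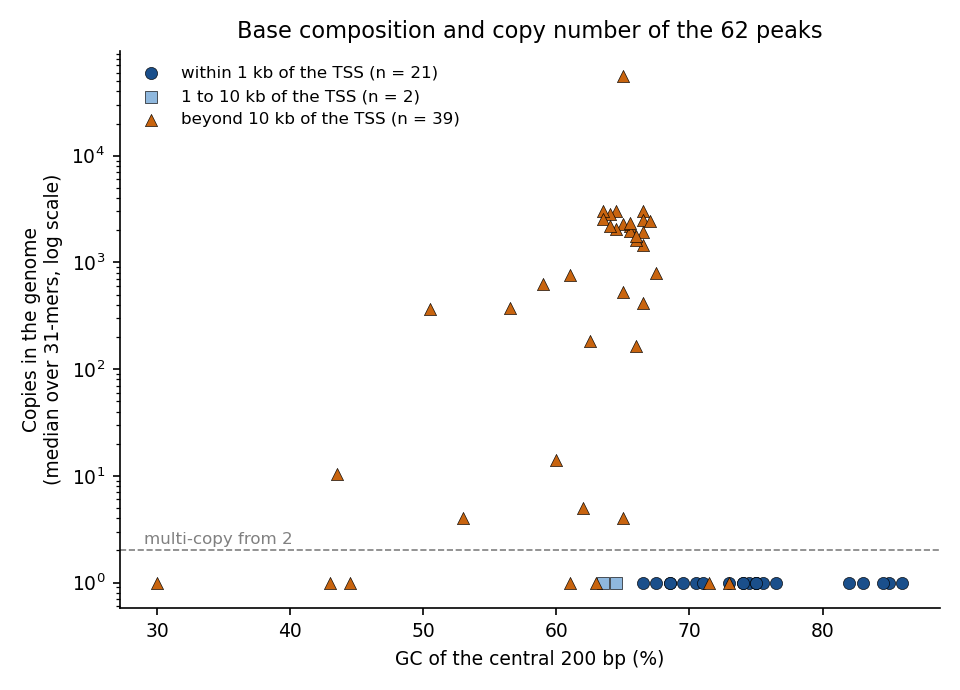
Copies in the genome (vertical axis, logarithmic, median over the 31-mers of the centre) against the GC content of the central 200 bp (horizontal axis, percent) for the 62 peaks, by distance to the TSS. The 21 promoter peaks sit at 1 copy between 66.5% and 86.0% GC, and most distal peaks sit above 100 copies near 64.5% GC, up to 55708 copies.

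The centres with the highest copy numbers show the kinds of repeat that were found. They are printed from the plus strand of mm9, and capitals mark the 31-mer with the most genome copies. The first, chr16:73298213-73298412, belongs to a Robo1 peak 634.9 kb downstream of the TSS, and the others, chr16:60747450-60747649 and chr17:61229806-61230005, belong to an Epha6 peak 142 kb upstream and an Efna5 peak 2001 kb downstream, which share the next highest value.
Robo1: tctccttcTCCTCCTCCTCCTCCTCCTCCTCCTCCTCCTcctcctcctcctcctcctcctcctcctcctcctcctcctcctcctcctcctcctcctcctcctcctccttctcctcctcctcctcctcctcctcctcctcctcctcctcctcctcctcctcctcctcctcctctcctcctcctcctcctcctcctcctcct
Epha6: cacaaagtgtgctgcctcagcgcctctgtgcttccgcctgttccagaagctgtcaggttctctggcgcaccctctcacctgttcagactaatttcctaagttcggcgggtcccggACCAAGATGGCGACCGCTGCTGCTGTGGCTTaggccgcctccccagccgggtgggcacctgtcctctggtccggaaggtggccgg
Efna5: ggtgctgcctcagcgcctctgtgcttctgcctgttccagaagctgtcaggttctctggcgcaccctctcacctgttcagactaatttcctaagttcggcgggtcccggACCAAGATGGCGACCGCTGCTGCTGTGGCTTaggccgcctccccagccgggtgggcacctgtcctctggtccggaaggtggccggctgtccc
The Robo1 centre is a run of TCC units with a median of 55708 genome copies. With 75-mers its median is 13, and with 31-mers over the whole peak it is 2. For the Epha6 and Efna5 centres the medians with 75-mers are 1568.5 and 1776. The Epha6 and Efna5 centres, from different chromosomes, both have a median of 3050 copies, and where they overlap, aligned on the capitals, 191 of 193 bases are identical.

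The 31-mer in capitals in the Epha6 and Efna5 centres was common to many distal peaks of these genes. It was picked from these same peaks, as the 31-mer with the most genome copies in the largest group of member peaks with shared sequence. It is given as a description, since that choice favoured a higher share among the members and inside the peaks of the list. It occurs 5776 times in the genome, and 4839 of these occurrences (83.8%) lie in an Isl1 peak of the list, where the peaks cover 0.534% of the genome. These occurrences lie in 1477 peaks, so some peaks hold several and the occurrences are not independent. It was present in 17 of the 39 distal member peaks (43.6%), against 1405 of 7193 distal peaks of the whole list (19.5%), in 0 of the 21 promoter peaks of the members, and in 1 promoter peak of the whole list. The 17 peaks belonged to 9 genes, which were Dcc, Efna5, Epha5, Epha6, Epha7, Robo1, Slit2, Unc5c and Unc5d. They held 48 copies, from 1 in a Slit2 peak to 5 in the Unc5c peak, at a median of 169.5 bp from the peak midpoint and never more than 464 bp from it. Over all peaks with it the median was 199 bp. Only occurrences inside a peak were counted, so the peak width limits these distances. These peaks are copies of the same sequence and so are not independent observations of 9 genes. A second kind, in 7 peaks, was tandem repeats in which at least 80% of the central bases recurred with a unit of at most 6 bases. These were in Dcc, Efna5, Epha3 (2 peaks), Epha7 and Robo1 (2 peaks), and an Epha6 peak with 79.9% and an Efnb2 peak with 78.5% fell just short.

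Measured by shared 31-mers, at least 50 of the 170 in a centre, 26 of the 39 distal peaks had sequence in common with other peaks of the list, 19 of them with another member peak, and 0 of the 21 promoter peaks did. By this measure the 17 peaks above are the largest group of member peaks. The 31-mer was picked from this group, so the grouping is no separate result. Each of the 17 shared sequence with 260 to 1103 other peaks of the list. A Dcc peak at 589 kb and an Epha6 peak at 764 kb upstream formed the only other group among the members, with 420 and 796.5 genome copies.

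Only 7 distal peaks were at single-copy sequence by the median copy number of the centre. They belonged to Efna5 (143.8 kb downstream, in its intron), Epha5 (169.9 kb downstream, in its intron), Epha7 (345.1 kb downstream), Ntn1 (the peak near its other start), Robo1 (235.8 kb downstream, in its intron), Robo3 (27.4 kb upstream) and Slit2 (224.8 kb upstream). Their widths ran from 366 bp at Robo1 to 1200 bp at Ntn1, and their GC contents from 30.0% at Epha7 to 73.0% at Ntn1. The intronic Epha5 peak was 374 bp wide with 43.0% GC, and the Efna5 peak 613 bp with 44.5% GC. In 5 of the 7, those of Efna5, Epha5, Epha7, Robo1 and Slit2, the GC content was below that of every member promoter peak. In the Efna5, Epha5 and Robo1 centres, 57.2%, 59.7% and 59.7% of bases recurred with a unit of at most 6 bases. All were below the 80% limit for a tandem repeat. The most frequent stretch of the length counted had 1129996, 1828 and 11344 genome copies in these centres. For Slit2 this value was 352, and the median over its whole peak was 4, which is multi-copy. In the Epha7, Ntn1 and Robo3 centres no such stretch had more than 1 copy.

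Genes with many peaks were those with large surroundings. Efna5 had 6 peaks, Epha6, Epha7, Dcc and Unc5d had 5 each, Epha5, Slit2 and Robo1 had 4 each, Epha3 had 3, and Efnb2 and Ntn1 had 2. Beside its promoter and intronic peaks, Efna5 had 4 multi-copy peaks downstream, at 488.8, 1143, 1952 and 2001 kb. Unc5d had multi-copy peaks at 25.1, 249 and 352.4 kb downstream and 140.7 kb upstream, each with the shared 31-mer, and Dcc had 5 at 61.1, 155.8, 226.3, 403 and 589.1 kb upstream. The Dcc peak at 61.1 kb, a tandem repeat, had a median of 376 copies in its centre. That median was 1 with 75-mers and 1 over the whole peak. The widest of all member peaks was one of Epha3 (chromosome 16, 63460062 to 63463232), which spanned 3170 bp at 402.3 kb downstream and was a tandem repeat with 4 genome copies by the median.

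A closest-TSS rule gives a gene more peaks the more sequence lies nearest to it. The territory of a gene, the sequence closer to its annotated starts than to those of any other protein-coding gene, had a median of 1929 kb for the 8 members with at least 4 peaks, 104.5 kb for the 17 with 1 peak and 50.4 kb for the 8 with none. Over all 36 members it was 172 kb, where all protein-coding genes had 46.7 kb. Genes with larger territories had peaks more often in the whole list, at 20.7%, 29.1%, 42.5% and 68.4% from the lowest to the highest of 4 equal bins of territory size. Of the members, 21 fell in the highest bin, and 19 of these 21 had a peak, as did 2 of 2, 3 of 7 and 4 of 6 in the bins below, from the lowest up. For promoter peaks in the highest bin, the members had 13 of 21 where 36.5% of all genes in that bin had one. The peaks counted here follow the deposited assignment, which also names noncoding genes, whereas territories use protein-coding starts only. By the closest protein-coding TSS of GENCODE, Robo2, in the highest bin, would have 8 peaks. The part of territory in the members' counts was not tested beyond these values.

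**Figure D5:**
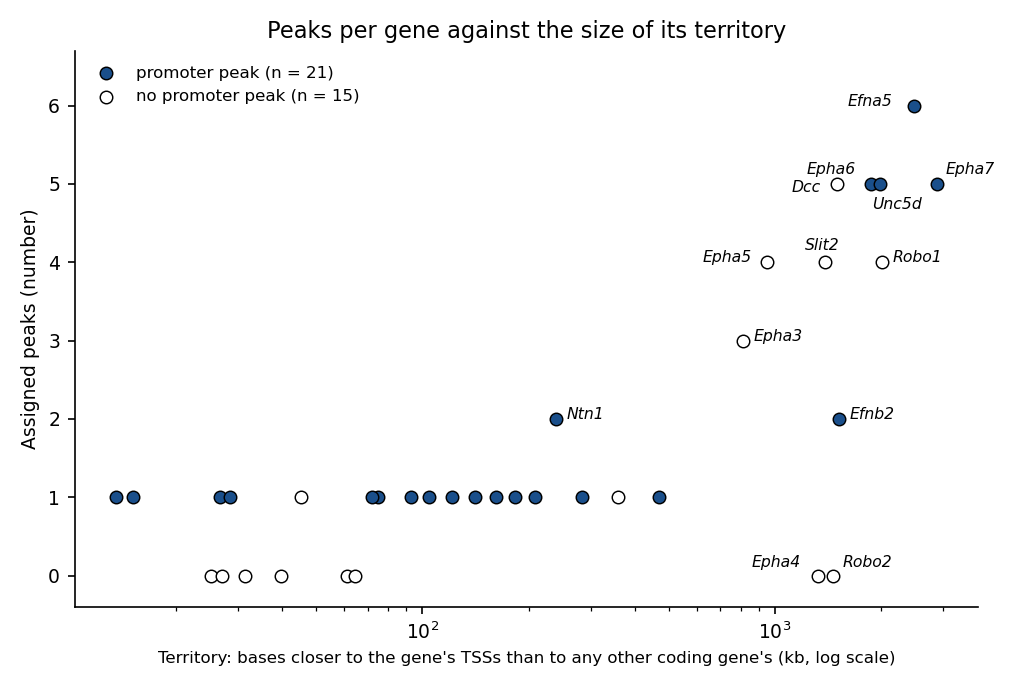
Number of assigned peaks (vertical axis) against territory size in kb (horizontal axis, logarithmic) for the 36 genes, filled where the gene has a promoter peak. The 8 genes with at least 4 peaks all have territories of at least 949 kb, while Epha4 and Robo2 have territories of 1324 and 1456 kb and no assigned peak. Peaks follow the deposited assignment, which also names noncoding genes, whereas territories use protein-coding starts only. By the closest protein-coding TSS of GENCODE, Robo2 has 8 peaks and Epha4 has 0.

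Promoter composition went with promoter peaks as well. The CpG ratio over 500 bp to either side of the TSS was at least 0.6 in 27 members, of which 18 had a promoter peak. It was lower in 9, of which 3 had one (Efnb3, Epha6 and Ntn1). For Ntn1 the ratio was taken at its other start, near the second peak, and not at the start of its promoter peak. The centre of that promoter peak had a ratio of 1.06. Among all protein-coding genes the shares were 44.5% in the first class and 6.60% in the second. Members of the CpG-rich class without a promoter peak were Epha2, Epha3, Epha4, Epha5, Epha10, Ephb6, Robo1, Slit2 and Unc5c. Of the 4 Robo genes, Robo2, Robo3 and Robo4 were in the CpG-poor class, with ratios of 0.463, 0.536 and 0.157.

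The genes without an assigned peak differed in how far the nearest peak was. It lay 9.02 kb from the TSS of Epha10, inside the gene body but assigned to a neighbouring transcript, and 23.2 kb from that of Epha1, which encodes a founding member of the Eph receptors. For Epha2 it was 53.3 kb and for Epha4 702 kb away, the latter assigned to Pax3. None of these 8 genes can be called free of Isl1, since the depth is unknown and a site had to pass in both replicates to be listed.

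The centres were also searched on both strands for short strings. The LIM-homeodomain type string, CTAATTG or CTAATGG, which fits the DNA-binding domain class of Isl1, was found in 0 of the 62 centres, which allows a share of up to 4.84% by the same limit of 3 counts, and in 0.412% of all peaks. In the flanks 2 kb away it was found beside 0 of the 62 peaks on the lower and 3 on the higher coordinate side. Over all peaks it was in 2.8% of the flanks on each side, more often than in the centres. The GATA type string, in which GATA follows A or T and precedes A or G, was found in 2 centres, the promoter peak of Efnb2 and a distal peak of Epha7, against 22 and 27 of 62 flanks. It was in 4.22% of all peak centres, against 35.2% and 35.9% of their flanks. The GC box was found in 23 of 62 centres (37.1%, interval 26.2% to 49.5%), where 42.0% of all peaks held it. It was in 1 and 2 of 62 flanks and in 11 of the 21 promoter peaks (52.4%, interval 32.4% to 71.7%), where 65.7% of all promoter peaks held it. These 11 were at Efna2, Efna3, Efna5, Efnb3, Epha8, Ephb4, Neo1, Slit3, Unc5a, Unc5b and Unc5d. Centres and flanks differ in base composition. Over all peaks, median GC was 74.0% in promoter peak centres against 45.5% in the flanks on each side. At distal peaks it was 63.5% against 40.0%. The LIM-homeodomain and GATA type strings are rich in A and T, and the GC box in G and C. The part of base composition in these shares was not tested. A string that is absent from these letters says nothing about binding through other sequences.

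Genes that act with these receptors were counted from a list of 65 partners and effectors. Of these, 50 had an assigned peak (76.9%, interval 65.4% to 85.5%) and 39 a promoter peak (60.0%), with 81 peaks of which 31 were multi-copy. Among all protein-coding genes 39.1% had a peak and 24.2% a promoter peak, and 46.5% of all peaks were multi-copy. The kinases, adaptors and cytoskeletal effectors below the receptors had promoter peaks at 17 of 26 genes, and 1 of their 22 peaks was multi-copy. They were Abl1, Abl2, Fyn, Src and Ptk2, which encode tyrosine kinases, the adaptor genes Nck2, Crk, Grip1, Anks1 and Magi1, the phosphatase gene Inppl1, the actin regulators Enah, Vasp and Evl, and the serine/threonine kinase genes Pak2, Rock1 and Rock2.

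Binding partners and co-receptors had promoter peaks at 7 of 14 genes, which were Dscam and Dscaml1, the netrin antagonist Draxin, the proteoglycans Gpc1 and Sdc3, the Slit-binding dystroglycan gene Dag1 and the ephrin-shedding protease gene Adam10. This group held 28 peaks of which 18 were multi-copy, and the UNC5 ligand genes Flrt2 with 9 and Flrt3 with 6 peaks had no promoter peak. The 6 family genes that were not among the 36 were Efnb1, Ntn3, Ntn5, Ntng1, Ntng2 and Unc5cl. Of these, 4 had a peak and 1, Ntn3, a promoter peak.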

How the data were processed

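The 3 libraries were 2 Isl1 ChIP replicates and 1 input, grouped by their titles. By its methods, the study used Bowtie2 for alignment to mm9, Picard 1.136 to drop duplicates, MACS to call peaks (whether with input as control was not given in the sources used here), a blacklist, bedtools 2.15 to keep areas found in both replicates, and HOMER to name the gene with the closest TSS. The authors deposited 1 peak list; its starts, ends and signed distances are in bp, and it holds no score. Library depth is unknown here, and starts are uncertain by 1 bp.

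From 14165 lines, 14082 distinct peaks were kept. Positions, features and sequences came from the NCBI m37 (mm9) genome and its GENCODE annotation, and the protein-coding class from RefSeq names of GRCm38, without its coordinates. All 36 gene symbols matched, and 16 names in the list did not. Background genes were the 21031 protein-coding genes with a curated transcript. Copies were counted by exact matching of 31-mers and tested on simulated sequence. Shares carry Wilson 95% intervals (scipy 1.17.1). Tables were made with pandas 2.3.3 and figures with matplotlib 3.10.9.

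All members were named, with full accounts of promoter peaks, the 3 widest peaks and the genes with most peaks, and from the partner list the genes with a promoter peak (Flrt2 and Flrt3 were added for their values). The genes of 1 of the 4 groups of that list are not reported here. The members and lists were chosen with earlier results of these data known, so no enrichment or other test was run. Printed promoter windows replace the planned peak centres, most of which lie in UTRs or exons. Alternatives were a minimum width, single-copy peaks, merging, other distances, GENCODE assignment, gene bodies, 75-mers, whole peaks and a stricter copy number.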

Additional observations from a re-analysis of the deposited data

How the results depend on the processing

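Over 34 alternatives of 7 results, 29 stayed within 1.5 times the reported count or within the reported interval and 5 did not. Peaks assigned to the 36 genes numbered 30 at single-copy sequence and 23 within 10 kb of the TSS, where 62 were reported. Genes with a peak numbered 11 when at least 2 peaks were asked for, where 28 were reported. The share of multi-copy peaks was 38.7% with 75-mers, where it was 51.6% with 31-mers. Among single-copy peaks alone, 70.0% were within 1 kb of the TSS, where 33.9% were reported. The number of genes with a promoter peak ran from 19 (within 500 bp) to 21 over its alternatives. With the closest protein-coding TSS of GENCODE, 31 genes had 79 peaks, the added genes being Epha10, Robo2 and Robo4.

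Leaving out a replicate was not possible, because the list joins both. No paired analysis was possible because the results come from no test and the joined list carries no replicate numbers. The depth is unknown, so weak sites cannot be told from absent ones, and peaks at multi-copy sequence depend on how reads with several matches were placed, which was not tested.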
